A study of Mus musculus with 3 samples.

Results

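The keratin loci of the mouse genome form a pair of clusters, type I on chromosome 11 and type II on chromosome 15, and the c-FOS peaks listed inside them are described here. Members were the peaks whose midpoint fell in 1 of 2 windows of the mm9 build: 99.00 to 100.20 Mb of chromosome 11 for type I and 101.15 to 101.90 Mb of chromosome 15 for type II. The windows held 56 of 15011 listed peaks, 37 in the type I cluster and 19 in the type II cluster. The loci of interest within them were those of 10 keratin genes: Krt10, Krt15, Krt14, Krt16 and Krt17 in type I, and Krt6a, Krt6b, Krt5, Krt8 and Krt18 in type II.

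The peaks come from chromatin immunoprecipitation and sequencing (ChIP-seq) of c-FOS in ASZ001, an established line of mouse basal cell carcinoma cells. Chromatin was taken on day 6 after induction from 2 samples precipitated with an anti-c-FOS antibody and from 1 input sample with no antibody. Both groups had the same genotype, RasV12 with an shRNA against TGFbR1, and the same Dox and 4OHT treatment, so no uninduced or unmodified arm enters here. The authors' peak list is 1 list that names no replicate and gives no height or score, so every value is a description of that list, with no spread between samples; the depth behind it is unknown.

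Keratins are the intermediate filament proteins of epithelial cells, and a filament needs a type I partner and a type II partner. In skin, Krt5 and Krt14 are the pair of the basal layer, with Krt15 in basal and hair follicle stem cells, Krt10 marks cells that have begun to differentiate, Krt6a, Krt6b, Krt16 and Krt17 are induced by wounding and stress, and Krt8 and Krt18 are the pair of simple epithelia. c-FOS is a subunit of the dimeric factor AP-1, which pairs FOS and JUN family proteins and binds the palindrome TGANTCA.

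Gene positions were known only roughly. They are approximate mm9 positions that came with the definition of the loci, not read from an annotation: 99.25 Mb for Krt10, 99.99 Mb for Krt15, 100.06 Mb for Krt14, 100.11 Mb for Krt16, 100.12 Mb for Krt17, 101.5 Mb for Krt6a, Krt6b and Krt5 together, 101.83 Mb for Krt8 and 101.86 Mb for Krt18. Their order was the same as the order of the 10 genes in the RefSeq gene table of GRCm38. Distances to them are therefore approximate, no peak is placed in an exon, intron or promoter, and Krt16 and Krt17, whose positions lie as close together as the positions are rounded, are treated as 1 locus where it matters. A peak was called near a gene when its midpoint lay within 50 kb of the position and no other listed position was closer.

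Promoter sequences of 5 of the 10 genes (Krt5, Krt8, Krt10, Krt14 and Krt18) were found in a RefSeq promoter table of GRCm38.p6, which covers 250 bases before to 50 bases after a gene's start. The other members are Krt6a, Krt6b, Krt15, Krt16 and Krt17. Because the table and the peaks are on different builds, a promoter could not be laid over a peak. Those of the basal keratin Krt5, the differentiation keratin Krt10 and the simple-epithelial keratin Krt18 are shown, as 1 example of each of these classes. They run 5′ to 3′ along the gene, with matches to TGANTCA, TGACGTCA or TGANNTCA in capitals.

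Krt5: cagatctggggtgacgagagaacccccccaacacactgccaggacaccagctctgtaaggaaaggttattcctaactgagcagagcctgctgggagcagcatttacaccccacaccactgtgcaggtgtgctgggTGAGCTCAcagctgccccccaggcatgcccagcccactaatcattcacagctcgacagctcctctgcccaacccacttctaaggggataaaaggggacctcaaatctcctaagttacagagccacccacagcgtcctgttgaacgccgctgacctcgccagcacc

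Krt10: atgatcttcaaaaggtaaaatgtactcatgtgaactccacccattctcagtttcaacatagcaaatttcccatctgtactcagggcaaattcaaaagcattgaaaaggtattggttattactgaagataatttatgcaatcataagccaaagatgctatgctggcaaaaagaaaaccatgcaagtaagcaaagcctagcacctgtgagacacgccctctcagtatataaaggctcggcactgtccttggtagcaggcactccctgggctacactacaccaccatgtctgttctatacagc

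Krt18: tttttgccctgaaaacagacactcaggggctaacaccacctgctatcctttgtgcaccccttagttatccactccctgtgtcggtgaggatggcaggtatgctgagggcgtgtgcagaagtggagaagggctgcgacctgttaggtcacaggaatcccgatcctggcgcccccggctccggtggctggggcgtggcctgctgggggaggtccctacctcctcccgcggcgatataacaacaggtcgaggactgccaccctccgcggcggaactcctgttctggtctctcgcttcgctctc

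The AP-1 palindrome TGANTCA, which reads the same on both strands apart from its middle base, was in 0 of the 5 promoters and in 7.81% of the 32851 promoters of the table. The CRE palindrome TGACGTCA was also in 0 of the 5, against 1.79% of all. The word TGANNTCA includes TGACGTCA but is longer than TGANTCA and not a looser form of it. It was in 1 of the 5, the Krt5 promoter, and in 14.1% of all promoters. The Krt5 match, TGAGCTCA, began at -115 from the start and was neither TGANTCA nor TGACGTCA. The windows listed for Krt10 and Krt14 lay wholly inside the gene's span in the same table, so a more upstream start is annotated for each. These counts describe the letters of 5 short windows and say nothing of where c-FOS was found.

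Both clusters held more listed c-FOS peaks per Mb than the rest of their chromosomes. The type I cluster had 30.8 peaks per Mb (exact Poisson 95% interval 21.7 to 42.5), against 14.9 per Mb (14.2 to 15.6) on the rest of chromosome 11, a ratio of 2.07. The type II cluster had 25.3 peaks per Mb (15.3 to 39.6), against 7.25 per Mb (6.74 to 7.79) on the rest of chromosome 15, a ratio of 3.49. Over the whole list the density was 5.65 peaks per Mb. The intervals cover counting error alone and treat peaks as independent, which neighbouring peaks are not.

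**Figure D1:**
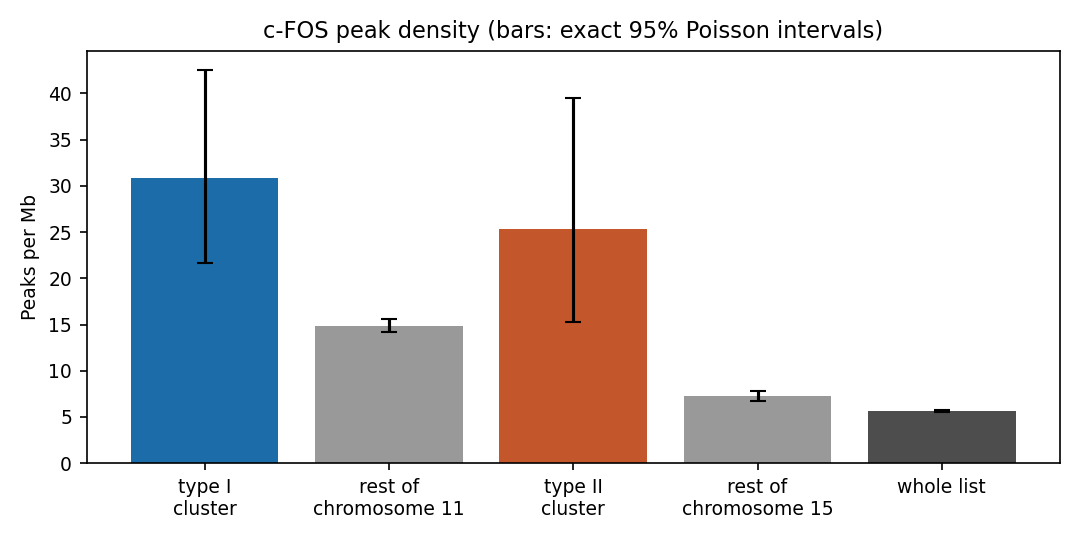
Density of listed c-FOS peaks, in peaks per Mb of mm9, in each keratin cluster, on the rest of its chromosome and over the whole list; error bars are exact Poisson 95% intervals for counting error. The type I cluster stands at 30.8 against 14.9 on the rest of chromosome 11, and the type II cluster at 25.3 against 7.25 on the rest of chromosome 15.

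Other regions of the list were as dense. When chromosomes 1 to 19 and X were cut into 2190 windows of 1.2 Mb, 67 (3.06%) had at least the 37 peaks of the type I cluster, 18 of them among the 101 windows of chromosome 11. The median window held 3 peaks over these chromosomes and 10 on chromosome 11. Among 3509 windows of 0.75 Mb, 182 (5.19%) held at least the 19 peaks of the type II cluster, 8 of them among the 137 windows of chromosome 15, where the median window held 2 peaks.

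Set against each other, the clusters could not be separated by density. Type I had 1.22 times the density of type II, and the exact binomial 95% interval of this ratio ran from 0.682 to 2.24. The direction depended on how it was counted. With peaks no more than 1000 bp apart merged, the ratio was 0.987, and with each density divided by that of its own chromosome it was 0.597, since chromosome 11 as a whole had 2.04 times the density of chromosome 15. Peaks covered 0.666% of the type I window and 0.431% of the type II window, against 0.107% of the genome. They covered 351770 bp of the 121.8 Mb of chromosome 11 and 143055 bp of the 103.5 Mb of chromosome 15. The covered share was therefore larger on chromosome 11 as a whole too, so the shares of the windows do not rank the clusters.

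Within the type I cluster the peaks gathered at the end that holds Krt14, Krt16 and Krt17. Within 50 kb of the 5 listed positions there were 21 peaks in 0.33 Mb, or 63.6 per Mb (39.4 to 97.3), and beyond them 16 peaks in 0.87 Mb, or 18.4 per Mb (10.5 to 29.9). The ratio of these densities was 3.46 (exact binomial 95% interval 1.72 to 7.09), with peaks treated as independent, which neighbours are not. Merging peaks no more than 1000 bp apart left 30 type I members, 14 of them near the positions. All merged peaks lay near the positions, so merging lowers the ratio, whose merged value was not computed. The ratio of 3.46 rested largely on Krt16 and Krt17. Their positions and the stretch nearest to them within 50 kb were left out in turn, and the rest beyond 50 kb was kept whole. Then 32.7 peaks per Mb near the other 3 positions stood against 18.4 beyond, a ratio of 1.78 (0.658 to 4.40). Within 50 kb of Krt10 there was 1 peak in 0.1 Mb, or 10 per Mb (0.253 to 55.7). Within 50 kb of the positions from Krt15 to Krt17 there were 20 in 0.23 Mb, or 87.0 per Mb (53.1 to 134).

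**Figure D2:**
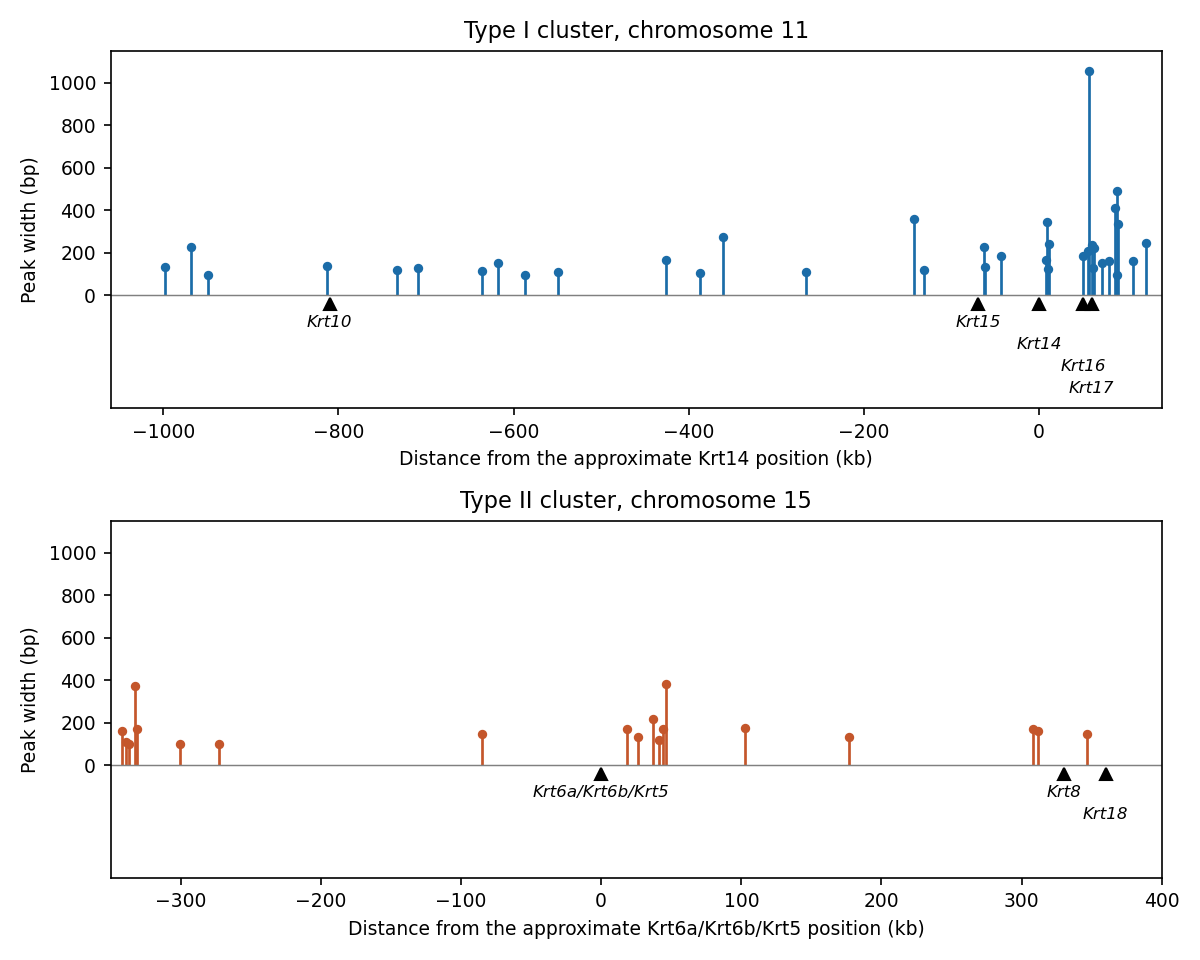
Each listed c-FOS peak of the keratin clusters, as a line whose height is the peak's width in bp, against its distance in kb from the approximate position of Krt14 (upper panel, type I) or of Krt6a, Krt6b and Krt5 (lower panel, type II); black triangles mark approximate gene positions. Type I peaks crowd around Krt16 and Krt17, where the 1056 bp peak stands out, while type II peaks form separate groups.

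With each peak given to its nearest position, the stress keratins Krt16 and Krt17 together had the most peaks within 50 kb. The 13 peaks near them made up 35.1% of the type I members and 48.2% of the bases those members cover, with widths from 98 to 1056 bp and a median of 207 bp. Of the 13, Krt16 was the nearest listed gene for 1 peak and Krt17 for 12. Since their positions lie so close, the division between the genes is not informative.

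The widest member lay here, on chromosome 11 from 100116343 to 100117398, and measured 1056 bp. It was centred 3.13 kb below the approximate Krt17 position. It was also the widest peak of chromosome 11 and the 1 member wider than 500 bp, a class that held 1.75% of the whole list, so 1 of 56 members was close to the background share. A narrower peak of 207 bp (100115734 to 100115940) lay 402 bp before it.

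Next along the chromosome was a group of 3 peaks, from 100120186 to 100122403, spanning 2218 bp at the approximate Krt17 position. The first of them, 236 bp wide, was the nearest of all members to that position, at 0.304 kb. The Krt16 peak, 186 bp wide from 100110501 to 100110686, lay 0.594 kb from the approximate Krt16 position. These short distances are smaller than the rounding of the positions and do not place the peaks within either gene.

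Farther on came wide peaks of 492 bp (100148285 to 100148776), 412 bp (100146324 to 100146735) and 335 bp (100150326 to 100150660), between 26.5 and 30.5 kb above the Krt17 position. In the gene order of GRCm38, Krt17 is followed by the keratin gene Krt42 and then by Eif1, Gast and Hap1, which are not keratins. Which of these genes, if any, the wide peaks overlap was not analysed here. The last peak near Krt17, 163 bp wide, lay 46.9 kb away, and the last of the window, 248 bp wide, lay 61.7 kb away.

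Linked by gaps of at most 10 kb, 12 of these peaks formed a single run from 100110501 to 100150660, 40.2 kb long. Of 10423 such runs in the whole list, lone peaks included, 17 (0.163%) had at least 12 peaks. The tile of 50 kb from 100100001 to 100150000 held 11 peaks, a count reached by 20 of 52767 tiles on chromosomes 1 to 19 and X, 7 of them on chromosome 11.

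**Figure D3:**
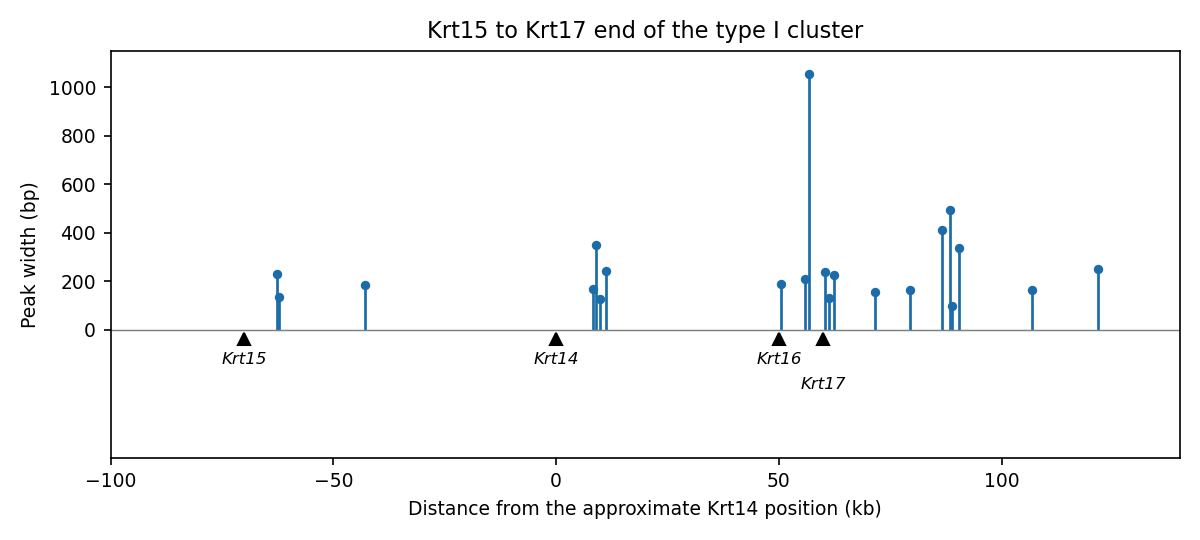
The Krt15 to Krt17 end of the type I cluster, with peak width in bp against distance in kb from the approximate Krt14 position; triangles mark approximate gene positions. A tight group of 4 peaks lies just above the Krt14 position, and 14 peaks lie around and beyond Krt16 and Krt17, including those of 1056, 492 and 412 bp.

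Krt14, the basal type I keratin, had 4 peaks, all above its approximate position and all within 11.3 kb of it. They measured 168 bp (100068175 to 100068342), 347 bp (100068712 to 100069058), 125 bp (100069703 to 100069827) and 242 bp (100071173 to 100071414). The first 3 were linked by gaps of 369 and 644 bp, and the 4 together spanned 3.24 kb. Before and after this group the type I cluster held no peak for 51.1 and 39.1 kb. Of the runs in the whole list, 392 of 10423 (3.76%) had at least 4 peaks.

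Krt15 had 3 peaks near it. A close couple of 228 bp (99997249 to 99997476) and 135 bp (99997639 to 99997773) was separated by 162 bp and lay 7.36 and 7.71 kb above the approximate position. The third, 184 bp wide from 100016904 to 100017087, lay 27.0 kb away. In the GRCm38 order the keratin genes Krt19 and Krt9 follow Krt15 and precede Krt14.

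Krt10, the differentiation keratin of the list, had 1 peak. It ran from 99247378 to 99247516, measured 139 bp and lay 2.55 kb below the approximate position. Its closest neighbours in the list were 136.7 and 78.9 kb away, so it stood alone. Within 100 kb of the Krt10 position there were 2 peaks, against 4 for Krt14 and 14 for Krt16 and Krt17 with each peak given to its nearest position. These counts cover unequal lengths. Neighbouring positions shorten the stretch given to Krt14, and Krt14 and the window's end shorten that of Krt16 and Krt17. The counts therefore do not rank the genes.

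Between Krt10 and Krt15, the part more than 50 kb from either position was 0.64 Mb long and held 12 peaks or 18.8 per Mb (9.69 to 32.8), against 14.9 per Mb on the rest of chromosome 11. In GRCm38 the interval between these genes holds 51 protein-coding genes, among them 13 keratin genes, the hair keratins Krt31 to Krt36 included, and 23 genes named as keratin-associated proteins, the matrix proteins of hair. Which genes its peaks lie in was not analysed here. The 2 longest stretches here with no peak measured 123.5 kb (99793603 to 99917072) and 122.2 kb (99511215 to 99633423).

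In the type II cluster the basal and stress keratins Krt5, Krt6a and Krt6b, which share 1 approximate position, had 6 peaks. All lay above that position, at 18.7 to 46.5 kb, and none below it within 50 kb. The position is rounded to 0.1 Mb, which is more than these offsets. They therefore do not show how far the peaks lie from any of these genes, or on which side. The widths, in order, were 171 bp (101518628 to 101518798), 134 bp (101526042 to 101526175), 217 bp (101536929 to 101537145), 121 bp (101541095 to 101541215), 172 bp (101544279 to 101544450) and 382 bp (101546264 to 101546645).

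The last 4 of these formed a run of 9.72 kb, and the peak of 382 bp was the widest of the type II cluster. Of 10423 runs linked by gaps of at most 10 kb in the whole list, 392 (3.76%) had at least 4 peaks. The tile from 101500001 to 101550000 held all 6 peaks, a count reached by 193 of 52767 tiles, 11 of them on chromosome 15. Krt6b, Krt6a and Krt5 are direct neighbours in this order in GRCm38. The peaks could not be divided among the 3 genes, and Krt6a and Krt6b are near-identical copies, where reads may be placed in either; the labels do not say how the authors treated such reads.

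The simple-epithelial keratins Krt8 and Krt18 had 3 peaks within 50 kb, or 25 per Mb (5.16 to 73.1), against 25.3 per Mb in the whole type II cluster. Krt8 had 2, of 169 bp (101807886 to 101808054) and 161 bp (101811424 to 101811584), which lay 22.0 and 18.5 kb below its approximate position. Krt18 had 1, of 148 bp (101846506 to 101846653), 13.4 kb below its position and between the positions of the 2 genes. None of the 3 lay within 10 kb of a position. A peak of 261 bp from 101904100 to 101904360 had its midpoint 4.23 kb past the window's end and was not a member, although it lay within 50 kb of the Krt18 position.

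Near the listed type II positions there were 9 peaks in 0.22 Mb, or 40.9 per Mb (18.7 to 77.7), and beyond them 10 peaks in 0.53 Mb, or 18.9 per Mb (9.05 to 34.7). The ratio was 2.17, with an exact binomial 95% interval of 0.780 to 5.94 that includes 1. At a distance limit of 25 kb it was 1.27 (0.307 to 3.99) and at 100 kb 1.14 (0.417 to 3.17). The rounding of the position shared by Krt6a, Krt6b and Krt5 is coarser than limits of 25 and 50 kb. The ratios at those limits therefore cannot show whether peaks gather near these genes. Around the approximate type II positions themselves, no excess over the rest of the cluster was detectable with these numbers of peaks.

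Peaks far from the listed genes also formed a group in type II. At the start of the window 5 peaks lay within 11.3 kb, from 101157855 to 101169114, and measured 161, 109, 98, 373 and 169 bp. They lay over 330 kb below the position of Krt6a, Krt6b and Krt5. In GRCm38 the keratin genes farthest before Krt6b are Krt80 and Krt7, and whether these peaks lie at either was not analysed here. The tile from 101150001 to 101200000 held 6 peaks, as many as the tile from 101500001 to 101550000.

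Both clusters had empty parts. In type I 7 of 24 tiles of 50 kb (29.2%, exact binomial 95% interval 12.6 to 51.1%) held no peak, and in type II 8 of 15 (53.3%, 26.6 to 78.7%). Over chromosomes 1 to 19 and X, 83.7% of tiles were empty and 16.3% held at least 1 peak; the shares with at least 1 peak were 70.8% in type I, against 34.3% on chromosome 11, and 46.7% in type II, against 21.5% on chromosome 15.

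The longest empty stretch in type I, 136.7 kb (99110664 to 99247377), ended at the Krt10 peak. The longest in type II, 187.9 kb (101227189 to 101415065), lay before the position of Krt6a, Krt6b and Krt5, and which genes it holds was not analysed here. The next, 131.3 kb (101676553 to 101807885), ended before the Krt8 position. Another of 103.4 kb (101415212 to 101518627) held the approximate position shared by Krt6a, Krt6b and Krt5. The rounding of that position does not tell whether the genes lie in it. In GRCm38 the 10 protein-coding genes between Krt5 and Krt8 are all keratins, among them Krt1 and Krt2, type II keratins of differentiating epidermis. The part of that interval more than 50 kb from a listed position, 0.23 Mb long, held 2 peaks or 8.70 per Mb (1.05 to 31.4), of 177 bp (101602704 to 101602880) and 132 bp (101676421 to 101676552).

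**Figure D4:**
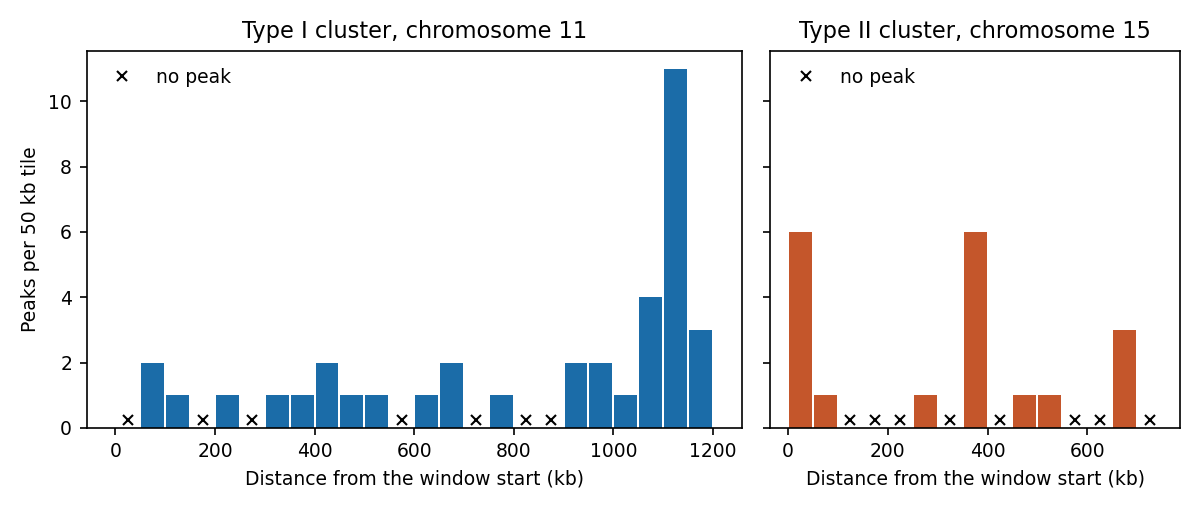
Number of listed c-FOS peaks in each 50 kb tile of the type I window (left) and the type II window (right), against distance from the window start in kb; crosses mark tiles with no peak. Type I has 1 tile of 11 peaks near its end and 7 empty tiles of 24, and type II has 2 tiles of 6 peaks and 8 empty tiles of 15.

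Close neighbours were listed in type I and not in type II. In type I, 12 of 37 peaks (32.4%, exact binomial 95% interval 18.0 to 49.8%) had a neighbour within 1 kb, and in type II 0 of 19, which allows a share of up to 17.6%; the share was 24.9% in the whole list, 29.3% on chromosome 11 and 21.6% on chromosome 15. The smallest gap between members was 112 bp in type I and 1601 bp in type II. At 10 kb the order turned: 18 of 37 type I peaks (48.6%, 31.9 to 65.6%) and 13 of 19 type II peaks (68.4%, 43.4 to 87.4%) had a neighbour, against 61.5% on chromosome 11, 45.4% on chromosome 15 and 48.7% of the whole list. All 12 members with a neighbour within 1 kb lay within 50 kb of Krt14, Krt15 or Krt17. The difference between the clusters was not tested, since close peaks are not independent.

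Median peak widths lay close to that of the whole list. The median was 163 bp in type I (95% interval of the median 132 to 225 bp) and 161 bp in type II (121 to 172 bp), against 158 bp in the whole list. Near the listed positions the median was 171.5 bp over 30 peaks (161 to 225 bp), and beyond them 131 bp over 26 peaks (109 to 168 bp). Near the positions 1 of 30 peaks had the list's minimum width of 98 bp, and beyond them 5 of 26; this width made up 10.7% of the whole list and 6 of the 56 members. Near and beyond were set after earlier results of this list were known, and the intervals treat peaks as independent.

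**Figure D5:**
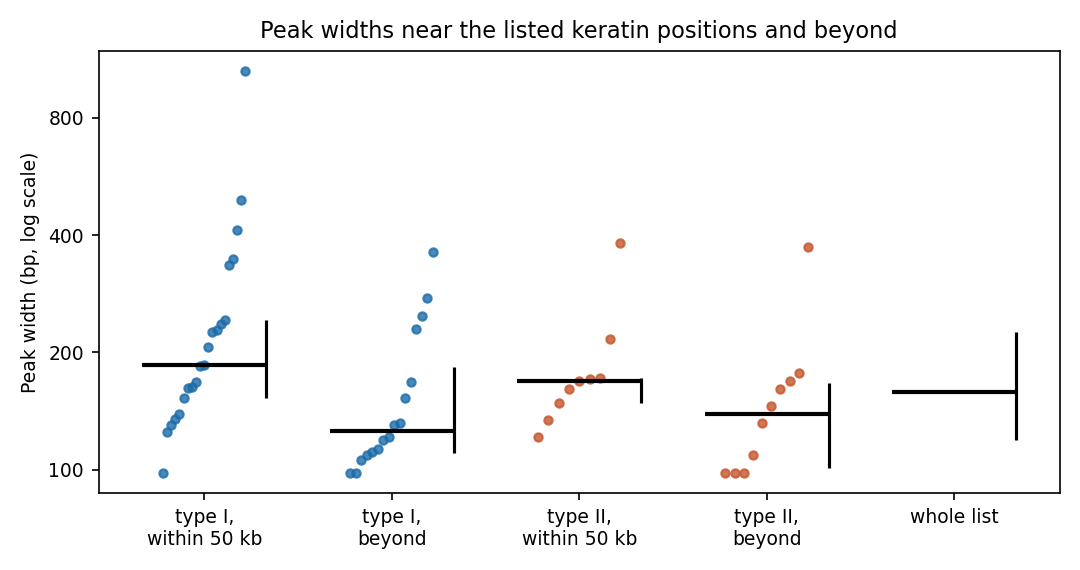
Width in bp (log scale) of every member peak within 50 kb of a listed keratin position and beyond, for type I and type II, with the median (horizontal bar) and the quartiles (vertical bar), and the same bars for the whole list. Medians are 186 and 125.5 bp in type I, 169 and 139 bp in type II and 158 bp in the whole list.

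At the edges of the windows, the first and last type I members lay 61.8 and 18.3 kb inside, and the nearest peaks outside lay 27.9 kb before and 48.6 kb after. For type II the first and last members lay 7.94 and 53.4 kb inside, and the nearest outside 35.4 kb before and 4.23 kb after.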

How the data were processed

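Per the submitters' processing notes, the authors used Bowtie2, MACS2 and the mm9 build. Tool versions, thresholds, any pooling of samples and whether the input was used were not given in the sources used here. Each row of the deposited list is a chromosome, start and end in bp. Coordinates are printed 1-based on mm9; every peak ended within the mm9 length of its chromosome (GenomeInfoDb 1.38.1, R 4.3.3). No mm9 sequence or annotation was used here, so no sequence under a peak is shown.

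Peaks were assigned to windows and to the nearest approximate gene position by midpoint, with Python 3.11.15, pandas 2.3.3, numpy 2.4.6 and scipy 1.17.1. Densities carry exact Poisson and shares exact binomial (Clopper-Pearson) 95% intervals, for counting error only; medians carry order-statistic intervals. No test was run, since 1 list holds no replicates. The counting code was tested on simulated lists. Named genes were the 10 members; all their peaks were described, or the widest and nearest where more than 5. Members, positions and lists were chosen with earlier results of these data known. Alternatives were the distance limit, tile size, window edges, merging and width. Figures used matplotlib 3.10.9.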

Additional observations from a re-analysis of the deposited data

How the results depend on the processing

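Of 38 alternative values, 27 stayed within the stated limits of the value reported (1.5 times for a count, its 95% interval otherwise) and 11 moved. Staying within a wide interval does not keep a direction. With close peaks merged, the ratio of type I to type II density counted as staying, within 0.682 to 2.24, although it was 0.987. Keeping peaks wider than the median left 20 type I and 10 type II members, and shrinking each window by 100 kb at both ends left 21 and 9. Both changes lower a count by construction. Peaks wider than the median made up 49.97% of the whole list, 54.1% of type I and 52.6% of type II. A limit of 25 kb left 4 peaks near type II positions. Dividing by chromosome density turned the ratio of type I to type II to 0.597. Empty tiles in type I were 52.1% at 25 kb, 8.33% at 100 kb and 62.5% with peaks wider than the median; in type II they were 14.3% at 100 kb. Smaller tiles and fewer peaks empty more tiles by construction. The word TGANNTCA, which is not a form of TGANTCA, gave 1 promoter in place of 0. The ratio of density near the type I positions to that beyond was 3.21 at 25 kb and 2.82 at 100 kb. Without Krt16 and Krt17 it was 1.78, with an interval (0.658 to 4.40) that includes 1. It was not computed with close peaks merged, which lowers it. The alternatives of this ratio, and those of the same ratio in type II, were chosen after seeing the data. No paired analysis was possible because the list names no replicate, and for the same reason no replicate could be left out. Depth is unknown and limits what an empty stretch shows.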
